A study of Mus musculus with 6 samples.

Results

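Peroxisomes are organelles bounded by a single membrane in which very long, branched and dicarboxylic acyl chains are shortened by beta-oxidation and the first steps of ether lipid synthesis take place. Their matrix enzymes are made in the cytosol and imported folded, through receptors and a membrane machinery encoded by the Pex genes. The proximal tubule of the kidney is rich in peroxisomes, and in rodents many genes of peroxisomal fatty acid oxidation are induced in fasting by the nuclear receptor Ppara.

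The expression of 38 genes of peroxisome biogenesis and peroxisomal lipid oxidation was compared between kidneys of wild-type (WT) mice and mice lacking Selenbp1, which encodes selenium-binding protein 1. The genes were taken from a list, as all non-control probes of the arrays that carry one of the 38 symbols, and comprised 26 enzymes and transporters and 12 Pex genes. They were read by 72 of the 56605 probes and make up 38 of the 37028 genes tested. The left kidneys came from 3 WT and 3 Selenbp1-KO male mice, aged 8 weeks and fasted for 20 h, and each kidney was hybridised to 1 one-color Agilent array. Every animal of both groups was fasted, so the arrays hold no fed mice. Per the methods, the WT mice were purchased. Whether the KO mice were littermates of WT mice is not given in the sources used here, so colony and genotype cannot be told apart.

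Values are log2 signals: the log2 of the background-subtracted intensity minus the log2 of the 75th percentile of its own array, so that a value of 0 equals that percentile. A difference is the mean of the Selenbp1-KO arrays minus the mean of the WT arrays on this scale, tested with limma across all probes. A gene is represented by its brightest probe, and it was called at an unadjusted p under 0.05, the threshold of the methods. Each value comes from whole kidney, so fewer cells of a type and less RNA per cell cannot be told apart.

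Selenbp1 itself gave log2 signals of 7.07, 7.02 and 7.02 in the WT kidneys and 4.13, 3.98 and 4.10 in the Selenbp1-KO kidneys. It was lower in KO by a log2 difference of -2.96 (SE 0.098, limma adjusted p = 0.0021). The 75th percentile was 711 and 751 intensity units in WT replicates 2 and 3, and 477 to 584 in WT replicate 4 and the KO kidneys. Spots well above background made up 55.4 and 55.5% in WT replicates 2 and 3, and 51.8 to 53.4% in the others. No spot was saturated on the 6 arrays. The median difference of all genes was 0.13, against 0.0040 after quantile normalization, so that a member with a difference of 0 lay below the median gene. In the genes well above background the median was 0.016, and 37 of the 38 members belonged to these.

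None of the 38 members was called. At the same threshold 8% of all genes were called, 6.87% higher and 1.13% lower in Selenbp1-KO kidneys, and among the 19263 genes well above background 5.79% were called. The limma adjusted p of the members ranged from 0.584 (Ehhadh) to 0.996. For the brightest probe of each gene and on this scaling, the arrays set close limits on most of these genes. The 95% interval of the difference lay within a 1.5-fold change in either direction for 34 of the 37 members with a level above background, and within 2-fold for all 37. The 3 wider ones were Ehhadh, Acot3 and Nudt19. A dimmer probe of Acox3, described below, reached beyond 1.5-fold (95% interval -0.84 to -0.21). The median pooled SD between replicate kidneys was 0.10 on the log2 scale, and the intervals reached a median of 0.27 to either side of the estimate.

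**Figure D1:**
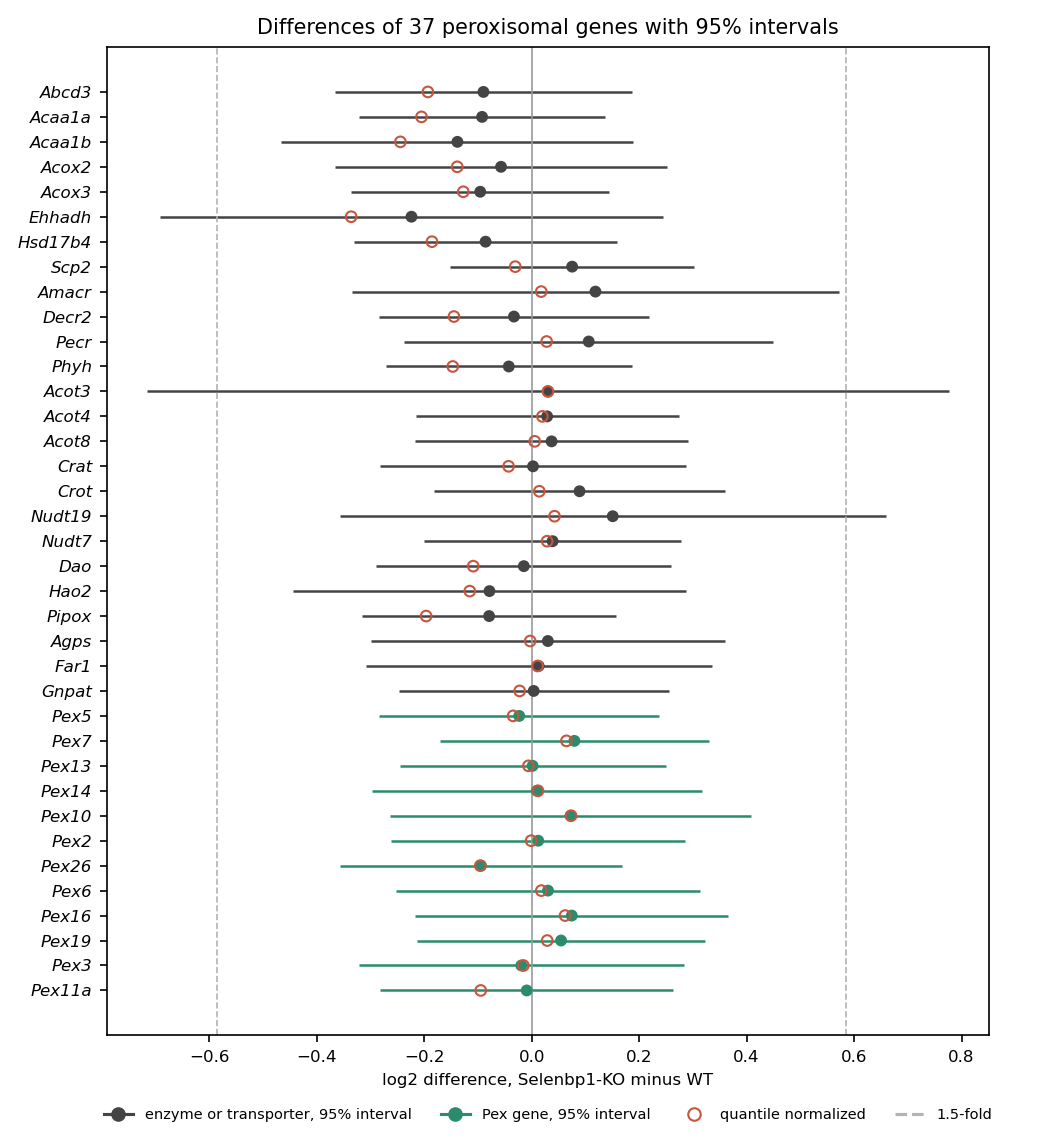
Log2 difference of Selenbp1-KO minus WT kidneys for 37 peroxisomal genes on the horizontal axis, with filled points and bars for the estimate and its 95% interval (n = 3 per genotype), open circles for the same difference after quantile normalization, and dashed lines at a 1.5-fold change. Every interval includes 0, and those of Ehhadh, Acot3 and Nudt19 cross a dashed line.

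Enzymes and Pex genes were both centred near 0. Of the 25 enzymes and transporters with a level, 13 were higher and 12 lower in KO, with a median difference of 0.0025 and a range from -0.22 (Ehhadh) to 0.15 (Nudt19). Of the 12 Pex genes, 8 were higher and 4 lower, with a median of 0.011 and a range from -0.094 (Pex26) to 0.079 (Pex7). After quantile normalization the medians were -0.043 for these 25 and 0.0053 for the Pex genes. In 2 of the 38 members, Acaa1a and Acox3, the 3 KO kidneys all lay below the 3 WT kidneys, which was also so for 3.87% of all genes and for 6.52% of the genes well above background. No member had its KO kidneys all above WT, against 10.2% of all genes.

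**Figure D2:**
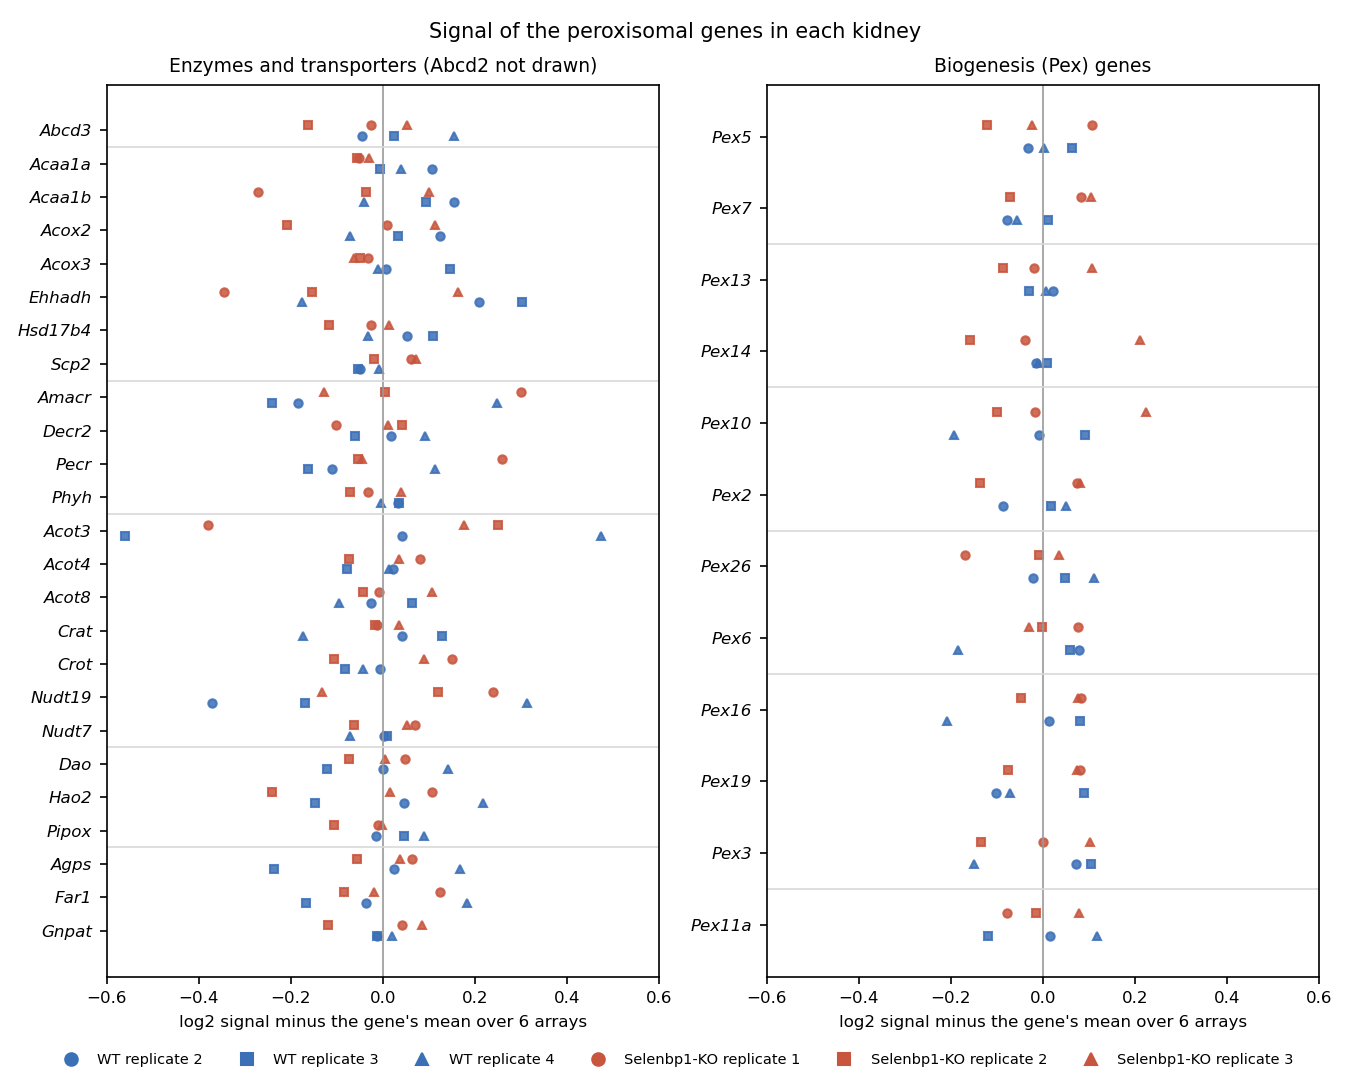
Log2 signal of each gene in each of the 6 kidneys minus the mean of that gene over the 6 arrays, with WT in blue and Selenbp1-KO in red and 1 marker shape per replicate; grey lines separate the roles. The genotypes do not overlap for Acaa1a and Acox3 and overlap for the other 35 genes drawn.

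Acyl-CoA esters enter the peroxisome through ABC transporters of the D subfamily. Abcd3, the main carrier of this kind in liver and kidney, had log2 signals of 6.01, 6.08 and 6.21 in WT and 6.03, 5.89 and 6.10 in KO, with overlapping groups and a difference of -0.090 (SE 0.11, adjusted p = 0.728). After quantile normalization it was -0.19, which was not past the threshold. In the authors' normalized values it was -0.17, past the unadjusted threshold, beside 3.71% of all genes called lower on these values. Its relative Abcd2 was not well above background on any of the 6 arrays with either of its 2 probes, so no difference is given for it.

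The core of the beta-oxidation spiral comprises oxidases, bifunctional enzymes and thiolases. Of its 7 members, 6 were lower in KO and Scp2 was higher, and after quantile normalization or in the authors' normalized values all 7 were lower. Their median difference was -0.092, and -0.19 after quantile normalization. Of the 19263 genes well above background 8815 were lower in KO, and 9974 after quantile normalization. With the row of the slide as a block, 4 of the 7 were lower and the median was -0.010. The row was inferred from the first position number in the name of each array's scan. That number groups WT replicates 2 and 3 against WT replicate 4 and the 3 KO kidneys. This block thus compares WT replicate 4 alone with KO.

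Acaa1a encodes the thiolase that releases acetyl-CoA at the last step. It gave 6.72, 6.61 and 6.65 in WT and 6.56, 6.56 and 6.58 in KO, and every KO kidney lay below every WT kidney. The difference was -0.092 (SE 0.094, limma adjusted p = 0.655), which is a fold of 0.938. After quantile normalization it was -0.21 and in the authors' normalized values -0.18. Both passed the unadjusted threshold, beside 3.82% and 3.71% of all genes that were called lower on these values. Among the genes with a mean log2 signal above 5, 10.2% were called lower after quantile normalization. A second Acaa1a probe, which crosses an exon junction, gave 4.10, 4.05 and 3.75 in WT and 3.82, 3.86 and 4.06 in KO, and there the groups overlapped (difference -0.053, adjusted p = 0.885).

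Acaa1b encodes a closely related thiolase from a neighbouring locus on chromosome 9. The first 30 of the 60 bases of the brightest probe of each are shown because the pair could share signal if the probes were alike. Positions are those of the array files in mouse build mm9, at chr9:119259353-119259412 on the plus strand for Acaa1a and chr9:119057326-119057385 on the minus strand for Acaa1b.
Acaa1a: ccctggttgcaaagccatttgtacctttga
Acaa1b: tctgcgtgggacactcagcagtggaggagt
Over the whole 60 bases the longest run shared by an Acaa1a and an Acaa1b probe was 6 bases. Acaa1b gave 5.61, 5.55 and 5.42 in WT and 5.19, 5.42 and 5.56 in KO, with overlapping groups (difference -0.14, SE 0.13, adjusted p = 0.638).

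Ehhadh encodes the bifunctional enzyme that acts on straight and dicarboxylic chains and is a standard marker of Ppara activity. Its log2 signals were 6.42, 6.51 and 6.03 in WT and 5.86, 6.05 and 6.37 in KO. WT replicates 2 and 3 were highest, WT replicate 4 lay within the range of the KO kidneys, and the difference was -0.22 (SE 0.19, adjusted p = 0.584; 95% interval -0.69 to 0.24). With the slide row as a block it was 0.064, and without WT replicate 4 it was -0.37, neither past the threshold. Ehhadh and Acaa1b were both lowest in KO replicate 1.

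**Figure D3:**
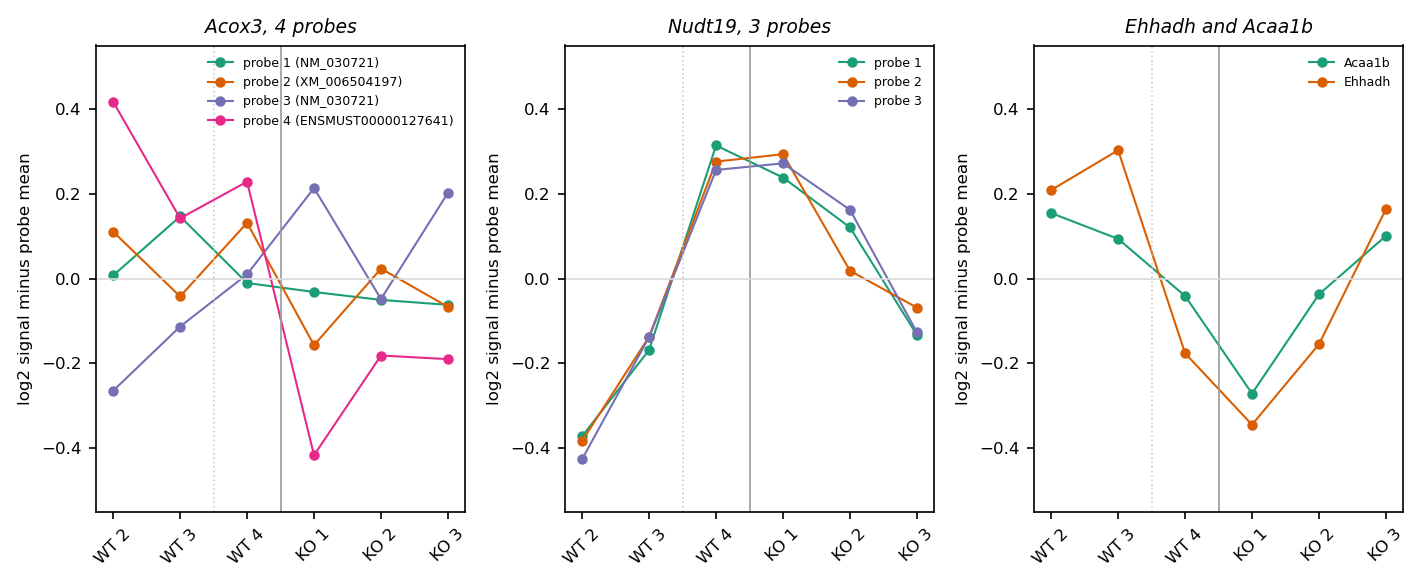
Log2 signal minus the mean of the probe over 6 arrays, for the 4 probes of Acox3, the 3 probes of Nudt19, and Ehhadh with Acaa1b; the solid line separates WT from Selenbp1-KO, the dotted line separates the slide rows, and the lines joining points only mark a probe, since replicates have no order. The Acox3 probes disagree in direction, the Nudt19 probes move together, and Ehhadh and Acaa1b are both lowest in KO replicate 1.

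Acox3 encodes the oxidase that starts the breakdown of 2-methyl-branched acyl-CoAs and is the 1 member that the study singles out. It is read by 4 probes on the plus strand of chromosome 5. The first 30 of the 60 bases of each are shown because the probes disagreed. They are ordered from the downstream end of the gene, and probe 1 is the brightest, which represents it. Probes 1 and 3 carry the accession NM_030721, probe 2 carries XM_006504197 and probe 4 carries ENSMUST00000127641. In mm9 they lie at chr5:35956215-35956274, chr5:35954432-35954491, chr5:35952411-35952470 and chr5:35930009-35930068. Whether they fall in coding or untranslated exons was not analysed here.
Acox3 probe 1: aaccagacttagatgggtgatatcacatga
Acox3 probe 2: gctcccatcaggcttgcttttatggcactt
Acox3 probe 3: agatgtcatcgccccctccgactttgttct
Acox3 probe 4: agtttcagaggatctggtaccctcatagat

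Probe 1 gave 3.95, 4.09 and 3.93 in WT and 3.91, 3.89 and 3.88 in KO. All KO values lay below WT, if narrowly (lowest WT kidney 3.93, highest KO kidney 3.91), with a difference of -0.096 (SE 0.098, adjusted p = 0.660). Probe 2 gave 1.51, 1.35 and 1.53 in WT and 1.24, 1.42 and 1.33 in KO, with overlapping groups (-0.13, adjusted p = 0.560). Probe 3 ran the other way, with 0.43, 0.58 and 0.71 in WT and 0.91, 0.65 and 0.90 in KO (0.25, adjusted p = 0.331). Its groups overlapped as well.

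Probe 4 was the only 1 of the 72 member probes called, against 7.98% of all probes and 1.51% called lower. It gave -2.15, -2.43 and -2.34 in WT and -2.98, -2.75 and -2.76 in KO, all KO kidneys below all WT kidneys. The difference was -0.53 (SE 0.13, limma adjusted p = 0.279), a fold of 0.695. It was well above background on all 6 arrays. The transcript it was designed on carries an Ensembl identifier that the gene table used here does not list. For Acox3 as a gene the difference thus depended on the probe, and the mean of all 4 probes gave -0.13 without passing the threshold. The study lists Acox3 as lower in KO on its arrays, without naming the probe. The ratio it lists is close to the fold of probe 4. It is far from the folds of the brighter Acox3 probes (0.936, 0.912 and 1.19). It also reports Acox3 as lower by real-time RT-PCR, which the arrays cannot check.

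The other 3 core members were not separated by genotype. Acox2, the oxidase for bile acid intermediates, gave 5.35, 5.26 and 5.15 in WT and 5.23, 5.02 and 5.34 in KO (-0.057), and its second probe gave 0.14, 0.14 and -0.40 in WT and 0.06, -0.29 and 0.14 in KO (0.011). Hsd17b4, the bifunctional enzyme for branched chains, had a difference of -0.086 (adjusted p = 0.705). Scp2, whose long form is the thiolase for branched chains, had one of 0.075 (adjusted p = 0.723) and turned to -0.031 after quantile normalization.

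Branched and unsaturated chains need auxiliary enzymes before the spiral can act on them. Amacr, the racemase that sets the 2-methyl group in the usable form, gave 5.72, 5.66 and 6.15 in WT and 6.21, 5.91 and 5.78 in KO. WT replicates 2 and 3 were lowest, the groups overlapped, and the difference was 0.12 (SE 0.19, adjusted p = 0.787). Pecr, a reductase of trans-2-enoyl-CoA, differed by 0.11, Phyh, the hydroxylase of phytanoyl-CoA, by -0.043, and Decr2, the dienoyl-CoA reductase, by -0.033. After quantile normalization Decr2 differed by -0.14 and passed the unadjusted threshold, beside 3.82% of all genes called lower on these values. For genes with a mean log2 signal above 5 that share was 10.2%.

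The shortened products leave as carnitine esters or free acids. The 7 members of this group (Crat, Crot, Acot3, Acot4, Acot8, Nudt7 and Nudt19) were higher in KO, by 0.0025 to 0.15, with 6 higher after quantile normalization or scaling by the median and 5 in the authors' normalized values. None was called, and the median was 0.037. Of all 37028 genes 25336 were higher in KO, and of the 19263 genes well above background 10448 were. With 1 array left out, 4 (without KO replicate 3) to 7 (without WT replicate 2) of them were higher. Nudt19, a diphosphatase of CoA that is abundant in kidney, gave 7.50, 7.71 and 8.19 in WT and 8.11, 8.00 and 7.74 in KO. WT replicates 2 and 3 were lowest and WT replicate 4 highest, so WT spanned the KO values.

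The difference of Nudt19 was 0.15 (SE 0.21, adjusted p = 0.754). It was -0.24 with the slide row as a block and 0.35 without WT replicate 4, neither past the threshold. Its other 2 probes showed the same high WT replicate 4, with 5.05, 5.30 and 5.71 in WT against 5.73, 5.45 and 5.36 in KO, and 3.30, 3.59 and 3.98 in WT against 4.00, 3.89 and 3.60 in KO. In all 3 probes WT replicates 2 and 3 were the lowest kidneys, and WT replicate 4 and KO replicate 1 the highest.

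Acot3, an acyl-CoA thioesterase, varied most among the members with a level. It gave 1.89, 1.29 and 2.32 in WT and 1.47, 2.10 and 2.02 in KO, with the lowest and the highest kidney both WT. Its difference was 0.030 (SE 0.31; 95% interval -0.72 to 0.78). Acot4, its neighbour on chromosome 12, differed by 0.029 with a much narrower interval of -0.22 to 0.27, and the longest run shared between a probe of Acot3 and a probe of Acot4 was 7 bases.

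Crat, the acetyl carnitine transferase, gave 4.41, 4.50 and 4.20 in WT and 4.36, 4.35 and 4.40 in KO (0.0025). Its second probe had the opposite sign, with -1.13, -1.59 and -1.50 in WT and -1.31, -1.72 and -1.41 in KO (-0.080, adjusted p = 0.857). Both probes had overlapping groups. Nudt7, a second CoA diphosphatase, gave 2.99, 3.00 and 2.92 in WT and 3.06, 2.93 and 3.04 in KO (0.039). Of its other 2 probes, 1 had a difference of 0.0064 and the other, with -1.74, -1.76 and -1.54 in WT and -1.62, -1.82 and -1.72 in KO, one of -0.038. Crot, the octanoyl carnitine transferase, differed by 0.089 and Acot8, a broad thioesterase, by 0.037.

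The 3 oxidases of amino and hydroxy acids were lower in KO, also after quantile normalization, scaling by the median and in the authors' normalized values, with a median of -0.079. Without WT replicate 4 or without KO replicate 2 the median was 0.011 and 0.019, with 2 of the 3 higher, and 1 of the 3 was higher with the replicate number as a block or with all probes of a gene averaged. Hao2, the long-chain hydroxy acid oxidase, gave 3.97, 3.78 and 4.14 in WT and 4.03, 3.68 and 3.94 in KO, with overlapping groups (-0.079, SE 0.15, adjusted p = 0.832). Pipox, the oxidase of pipecolic acid and sarcosine, differed by -0.079 (adjusted p = 0.718). It differed by -0.20 after quantile normalization and by -0.16 in the authors' normalized values. Both passed the unadjusted threshold, beside 3.82% and 3.71% of all genes called lower on these values. For genes with a mean log2 signal above 5 the share after quantile normalization was 10.2%. Dao, the D-amino acid oxidase, gave 6.32, 6.20 and 6.46 in WT and 6.37, 6.25 and 6.33 in KO (-0.015). A second Dao probe gave 3.12, 3.20 and 3.15 in WT and 3.30, 3.06 and 3.23 in KO (0.039), and both probes overlapped between genotypes.

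Ether lipids start in the peroxisome from fatty alcohols made by Far1, with Gnpat acylating dihydroxyacetone phosphate and Agps forming the ether bond. All 3 genes were higher in KO by 0.0037 to 0.030, but only 1 of the 3 was higher after quantile normalization, scaling by the median or in the authors' normalized values. Agps gave 3.72, 3.46 and 3.87 in WT and 3.76, 3.64 and 3.74 in KO (0.030, adjusted p = 0.935), with the KO kidneys inside the WT range. Far1 is read by 6 probes, of which 5 were well above background on all 6 arrays, 3 of them higher and 2 lower in KO. Its brightest probe gave 2.67, 2.54 and 2.89 in WT and 2.83, 2.62 and 2.69 in KO (0.013), and the other 2 higher ones differed by 0.0024 and 0.17. The 2 lower probes gave -0.29, -0.34 and -0.22 in WT against -0.17, -0.59 and -0.38 in KO (-0.099), and -3.44, -3.33 and -2.78 in WT against -2.91, -3.20 and -3.54 in KO (-0.033).

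Among the biogenesis genes, the cargo receptors Pex5 and Pex7 recognise the targeting signals at the C-terminal and N-terminal ends of matrix proteins. Pex7 gave 2.99, 3.08 and 3.01 in WT and 3.15, 2.99 and 3.17 in KO, with overlapping groups and the largest difference of a Pex gene above 0 (0.079, SE 0.10, adjusted p = 0.735). Pex5 differed by -0.023 (95% interval -0.28 to 0.24). The docking complex receives the loaded receptors. Of its parts, Pex14 gave 1.29, 1.31 and 1.29 in WT and 1.27, 1.14 and 1.51 in KO (0.0096, adjusted p = 0.980). The WT kidneys were nearly equal there and lay inside the KO range. Pex13 differed by 0.0017.

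Pex2 and Pex10 are RING ubiquitin ligases that tag receptors for recycling. Pex10 gave -0.34, -0.24 and -0.53 in WT and -0.35, -0.43 and -0.11 in KO (0.072, SE 0.14, adjusted p = 0.832), with overlapping groups. Pex2 gave 2.76, 2.87 and 2.90 in WT and 2.93, 2.71 and 2.93 in KO (0.012). Its second probe gave -4.61, -4.39 and -4.07 in WT and -5.18, -4.31 and -4.88 in KO (-0.44, SE 0.26, adjusted p = 0.392), but was well above background on 3 WT arrays and 1 KO array.

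Pex6, an ATPase, pulls the tagged receptors back out of the membrane, where Pex26 anchors it. Pex26 gave 1.95, 2.02 and 2.08 in WT and 1.80, 1.96 and 2.00 in KO, with KO replicate 1 lowest, overlapping groups and the largest difference of a Pex gene below 0 (-0.094, SE 0.11, adjusted p = 0.696). Pex6 gave 2.21, 2.19 and 1.95 in WT and 2.21, 2.13 and 2.10 in KO (0.030). Its other 2 probes had opposite signs, with -1.69, -1.93 and -1.57 in WT against -1.26, -1.71 and -1.40 in KO (0.27, adjusted p = 0.413), and -1.76, -2.19 and -2.23 in WT against -2.15, -2.18 and -2.00 in KO (-0.047, adjusted p = 0.911).

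Pex3, Pex16 and Pex19 insert the proteins of the peroxisomal membrane. Pex16 gave 2.76, 2.83 and 2.54 in WT and 2.83, 2.70 and 2.82 in KO, with WT replicate 4 lowest and overlapping groups (0.075, SE 0.12, adjusted p = 0.793). Its second probe gave 0.090 and was likewise lowest in WT replicate 4. Pex3 gave 1.69, 1.72 and 1.47 in WT and 1.62, 1.48 and 1.72 in KO (-0.019), while a second Pex3 probe, with -2.68, -2.22 and -2.43 in WT and -2.46, -2.50 and -2.32 in KO, differed by 0.017. Pex19 differed by 0.055. Pex11a, which elongates peroxisomes before they divide and is the Ppara-inducible form of its family, gave 5.18, 5.04 and 5.28 in WT and 5.09, 5.15 and 5.24 in KO (-0.0093, SE 0.11, adjusted p = 0.978).

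Of the 20 member genes with several probes well above background, 12 had all their probes on the same side of 0. The exceptions were Acox2, Acox3, Crat, Dao, Far1, Nudt7, Pex3 and Pex6.

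The members widely known to be induced by Ppara (Ehhadh, Hsd17b4, Acaa1a, Acaa1b, Abcd2, Abcd3, Crot, Crat, Decr2, Acot3, Acot4 and Pex11a) were also described as a group, since the study relates the loss of Selenbp1 to this receptor. Of the 11 with a level, 7 were lower and 4 higher in KO and none was called, with a median of -0.033. After quantile normalization 8 were lower, with a median of -0.14, and Acaa1a and Decr2 were called lower, as were 6.16% of the genes well above background. The 15 other enzymes had a median of 0.013, and of -0.022 after quantile normalization. Ppara itself gave 4.44, 4.51 and 4.46 in WT and 4.17, 3.93 and 4.39 in KO (-0.31, SE 0.14, limma adjusted p = 0.279), and its partner Rxra differed by -0.14 (adjusted p = 0.449). For both, all KO kidneys lay below all WT kidneys, as they did for 6.52% of the genes well above background. After quantile normalization the differences were -0.35 for Ppara and -0.23 for Rxra. Both then passed the unadjusted threshold, beside 6.16% of the genes well above background called lower. The study reports both as lower in KO on its arrays and by real-time RT-PCR.

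The promoters of 32 of the members, 41 windows of 300 bases around a gene start in RefSeq, were searched on both strands for DR1, the direct repeat bound by Ppara with Rxra, written as AGGTCA, any base, and AGGTCA again. None of the 41 held it, against 13 of all 32851 promoters (0.0396%). A looser form with any base in the fourth place of each repeat, which includes the first, was in none of the 41 and in 125 of all promoters (0.381%). This says only that these letters are not in these windows.

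Members with strong signal are set beside the other genes with strong signal here as a description. The 15 members with a mean log2 signal above 5 were 14 enzymes and transporters and Pex11a. Of these, 11 were lower in KO (73.3%) and their median difference was -0.043, whereas 21.4% of the 1307 genes above this limit were lower and their median was 0.089. After quantile normalization, which moved the median of the 1307 genes to -0.025, 12 of the 15 members (80%) and 62.1% of the genes were lower, and the members had a median of -0.14. The 3 members then called lower (Acaa1a, Decr2 and Pipox) compare with 10.2% of these genes called lower. The limit was chosen after the values were seen and no test was run on it. With limits of 4 and 6 the member medians were -0.024 and -0.029, beside 0.070 and 0.10 for the genes. The share of members lower was then smaller, at 61.1% and 62.5% (27.5% and 15.1% of the genes), and after quantile normalization it was 72.2% and 75% (58.4% and 61.1% of the genes).

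For each kidney a list can be given by the median of its genes' deviations from their mean over the 6 arrays. For all 26 enzymes and transporters this median lay between -0.034 and 0.017 in WT and between -0.060 and 0.036 in KO, and for the Pex genes between -0.032 and 0.054 in WT and -0.080 and 0.080 in KO, so the groups overlapped in both.

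**Figure D4:**
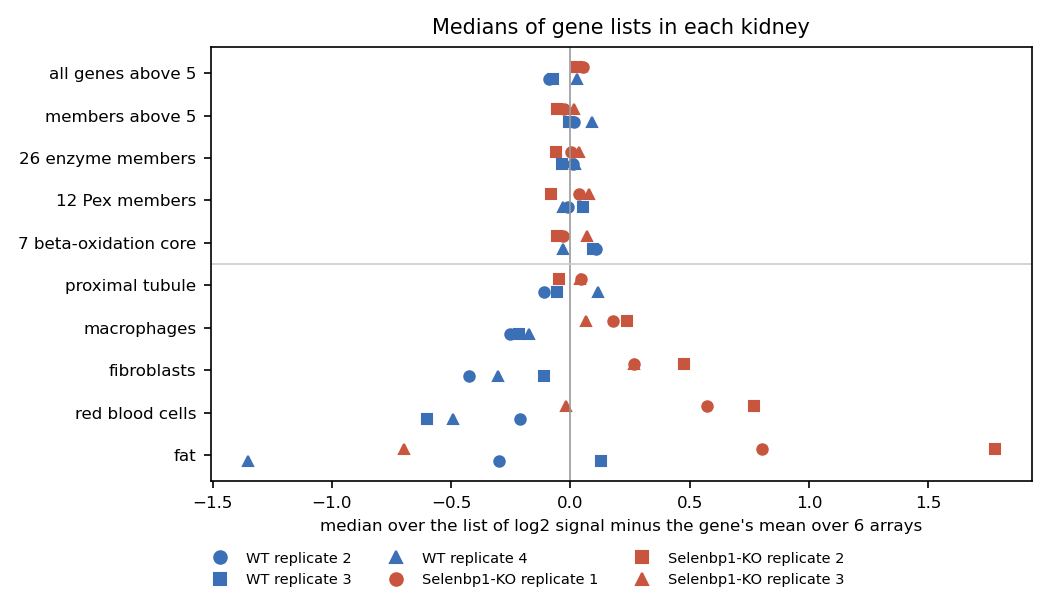
Median over the genes of a list of the log2 signal minus the mean of each gene over 6 arrays, for each kidney, with WT in blue and Selenbp1-KO in red; lists named above 5 hold genes with a mean log2 signal over 5, and the lower 5 lists are cell type markers. The peroxisomal lists stay within 0.11 of 0 in every kidney, while macrophage, fibroblast and red blood cell markers are higher in all KO than in all WT kidneys. All genes above 5 lie from -0.091 to 0.027 in WT and from 0.028 to 0.052 in KO.

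The rest of the organelle was represented by a list of other genes. Of these 33 further peroxisomal genes, 16 were higher and 17 lower, with a median of -0.0026, and 2 were called, beside 8% of all genes. Acbd5, which tethers peroxisomes to the endoplasmic reticulum, was lower in KO, with -1.51, -1.43 and -1.37 in WT and -1.70, -1.87 and -1.75 in KO (-0.33, SE 0.10, limma adjusted p = 0.279). The other was Baat, which was not well above background on any array and for which no fold is given. After quantile normalization the median was -0.043 and 6 were called, 5 of them lower, beside 3.82% of all genes and 6.16% of the genes well above background called lower.

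The marker genes of the proximal tubule, where most renal peroxisomes lie, did not separate the genotypes. None of 10 was called, their median difference was -0.013, and their summed signal, in multiples of the 75th percentile, was 614.8 to 735 in WT and 649 to 692 in KO. After quantile normalization the median of these 10 was -0.094, with 8 lower, 2 higher and 0 called. That of the 26 enzymes and transporters was -0.076. Markers of other cells moved with genotype: 4 of 5 red blood cell genes, 4 of 5 fibroblast genes and 3 of 5 macrophage genes were called higher in KO. The summed signals were 267.8 to 357 in WT and 382 to 574 in KO for red blood cells, 14.1 to 20.6 and 26.2 to 33.6 for fibroblasts, and 9.85 to 11.5 and 11.7 to 12.7 for macrophages. All 6 fat genes were higher without a call (11.0 to 42.0 in WT, 19.5 to 108 in KO). Of the remaining marker lists, 0 of 7 distal nephron and collecting duct genes, 1 of 5 glomerular genes (Synpo, higher) and 0 of 6 adrenal genes were called, and 4 of the 6 adrenal genes (Cyp11a1, Cyp11b1, Cyp11b2 and Mc2r) were not well above background on any array. The part of these cells in the values of the peroxisomal genes was not tested.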

How the data were processed

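Kidney RNA of 3 WT and 3 Selenbp1-KO mice was labelled with 1 dye and hybridised to 6 Agilent arrays, 1 per animal. The authors deposited the Feature Extraction output of each array (version 10.7.1.1 per the file headers, 9.5.1.1 per the labels), with a linear, background-subtracted intensity and a detection p-value for each spot. They also deposited a table of 1 intensity per probe, which is linear, has a median of 24.4 in each of its 6 columns as quantile normalization gives, and is here called the authors' normalized values. Its software is not given in the sources used here.

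The log2 of each intensity was centred on the 75th percentile of the 59305 non-control spots of its array. Outlier spots were left out, and spots of a probe were averaged. The 56097 probes detected (p under 0.05) on 1 array or more were compared by limma (version 3.58.1, R version 4.3.3; lmFit and eBayes, two-sided), as in the methods, with Benjamini-Hochberg adjustment over all of them. The fit was tested on simulated data. All 72 member probes passed the filter, and 66 were well above background on every array. RefSeq holds the accessions of 59 of the 72 member probes and names none differently. Coordinates are those of the files (mm9).

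The members and lists were chosen with earlier results of these data known. Values in every kidney are given for members that passed the threshold or whose groups did not overlap, for Acox3, for members whose probes differ in sign, and for the largest difference of each role. Replicates are separate animals. With 3 against 3 an exact permutation test cannot go below 0.1, and the number of arrays limits the precision. Alternatives were other background corrections, scalings and filters, a trended and robust variance, flagged spots kept, the slide row and the replicate number as blocks, all probes averaged, an adjusted threshold, and each array left out.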

Additional observations from a re-analysis of the deposited data

How the results depend on the processing

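No Pex gene was called under any alternative run, and no member was called higher. Of 645 values of single members under the alternatives, 96 had another sign than the reported one, none of them called, and 6 were called, all lower. The enzymes called were 3 after quantile normalization (Acaa1a, Decr2 and Pipox) and 3 in the authors' normalized values (Acaa1a, Abcd3 and Pipox), against 0 as reported and 0 under every other alternative. Of all genes, 3.82% were called lower after quantile normalization and 3.71% in the authors' normalized values. After quantile normalization the share was 6.16% of the genes well above background and 10.2% of those with a mean log2 signal above 5. The median difference of the 26 enzymes and transporters, -0.0061 as reported, was -0.076 after quantile normalization and -0.059 in the authors' normalized values, and leaving out each array gave -0.054 to 0.020. For the Pex genes, leaving out each array gave -0.024 to 0.064. The cause of these moves was not tested. Replicate numbers 2 and 3 occur in both groups. The deviations of same-numbered kidneys correlated at 0.17 and 0.19. Those of differently numbered kidneys ranged from -0.33 (WT replicate 3 with KO replicate 2) to 0.19 (WT replicate 3 with KO replicate 1). With only 2 shared numbers and no label that ties them the kidneys were not treated as pairs. With the replicate number as a block, 0 enzymes and 0 Pex genes were called, with medians of -0.0081 and 0.0061, while 4 other peroxisomal genes and 18430 probes were called. WT replicate 4 and KO replicate 1 have no partner in this block. Its differences thus rest on replicates 2 and 3 of each group alone, which leaves little to estimate the spread from.

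Of all probes, 4479 were called as reported (3632 higher and 847 lower). There were 14616 after scaling by the median, 2841 when dim probes were dropped (a probe had to be well above background throughout 1 genotype), 7536 with a trended and robust variance, and 2 at an adjusted p under 0.05. Leaving out each array gave 2024 (without WT replicate 2) to 17585 (without WT replicate 4). Quantile normalization split the calls into 2530 higher and 2156 lower, and the slide row as a block into 1361 higher and 2290 lower. The other peroxisomal genes called, 2 as reported, were 1 with normexp, 6 after quantile normalization, 5 in the authors' normalized values, 1 among probes well above background, 0 at an adjusted p under 0.05, and 1 to 4 with an array left out. Leaving out 1 array leaves 2 in a group. Signal over background limits Abcd2, which had no level.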
